A study of Homo sapiens with 60 samples.

Results

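CYP1A1 and CYP1B1 encode the cytochrome P450 enzymes 1A1 and 1B1, and their transcripts were read here by symbol as 2 of the 60675 genes of a table of expected counts. Both enzymes oxidise polycyclic aromatic hydrocarbons, plant flavonoids and steroid hormones. Their genes are the best known targets of the aryl hydrocarbon receptor (AhR), a ligand-activated transcription factor. In the absence of a ligand AhR is held in the cytoplasm by HSP90 and its co-chaperones, among them p23 (gene PTGES3). After binding a ligand it enters the nucleus, pairs with ARNT and binds short DNA elements with the core letters GCGTG, while AHRR and TIPARP, which are themselves targets, restrain it. In the intestinal epithelium AhR is known to respond to dietary and microbial ligands, and CYP1A1 is widely used as its readout.

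The cells were HT29, an established human colorectal adenocarcinoma line, harvested after 24 h and profiled by RNA sequencing. Each of 7 hot-water extracts was given at a high (500 µg/mL), a medium (100 µg/mL) and a low (20 µg/mL) dose. Menthae Herba and Saposhnikoviae Radix are single herbs, and the formulas of several herbs are Soshiho-tang, Soyo-san, Saengmaek-san, Okbyeongpung-san and Guibi-tang. Soshiho-tang had 1 library per dose and the other 6 had 3, so Soshiho-tang values carry no test. Vehicle cells, also 3 libraries, received DMSO, at 0.1% by the sample labels and 2% by the design text. The labels do not say if DMSO was also in the extract groups. All groups are the same line with no further treatment named, and the labels do not say whether replicates were separate cultures, so p-values measure only how these libraries vary, and that spread may be technical.

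The smallest library held 19495005 counts, the median one 29181790 and the largest 41934333. Summed levels of 10 colon epithelium markers were 11082 to 11721 CPM (counts scaled to the size of the library, with TMM factors) in vehicle and 10665 to 14585 in treated libraries, and those of 5 fibroblast and 3 endothelium markers stayed at or under 3.25 and 2.00 CPM. The sum of 5 leukocyte markers was 1407 to 1453 CPM in vehicle and 1226 to 1673 in treated libraries, and that of 4 hepatocyte markers 308 to 322 and 273 to 372, with 3 genes of each list under 1 CPM in every library. Their part in the results was not tested. Mitochondrial genes took 12.8% to 13.5% of counts in vehicle and 9.74% to 13.9% in treated libraries (median 11.2%), and the part of this in the results was not tested. The first principal component split the libraries at 1 point along their numbering, into 31 earlier and 29 later ones. The vehicle libraries and those of both single herbs were all earlier, those of Soyo-san, Okbyeongpung-san and Soshiho-tang all later, and Saengmaek-san and Guibi-tang lay on both sides. For the later extracts, library order and treatment cannot be told apart in a comparison with vehicle. The values are of bulk RNA, in which a change in the share of expressing cells and a change per cell cannot be told apart.

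CYP1A1 (ENSG00000140465) lies on chr15:74719542-74725610 (GRCh38, minus strand, GENCODE 29), with 7 exons in a transcript of 2685 bases. The 250 bases that precede its RefSeq start (GRCh38.p14, chr15:74725529-74725778, minus strand) are shown because they hold the AhR element core GCGTG, in capitals. GENCODE 29 places the start of the gene inside this window and ahead of GCGTG, so by that annotation the match lies within the gene.

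CYP1A1: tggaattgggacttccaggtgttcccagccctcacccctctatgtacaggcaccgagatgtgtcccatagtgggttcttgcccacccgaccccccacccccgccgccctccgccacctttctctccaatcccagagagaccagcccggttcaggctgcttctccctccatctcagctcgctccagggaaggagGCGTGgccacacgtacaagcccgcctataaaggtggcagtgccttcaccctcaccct

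GCGTG was searched on both strands (CACGC on the other) and matched 1 time, with its first base 57 bases before the RefSeq start. Of 35116 RefSeq promoter windows of this length, 11313 (32.2%) held at least 1 match. A match describes the letters and does not show a bound site. CYP1A2, the third enzyme of the family, starts 23233 bases away on the opposite strand and its window held 0 matches. CYP1B1 (ENSG00000138061) lies on chr2:38066973-38109902 (minus strand), with 3 exons in a transcript of 5250 bases.

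In vehicle cells CYP1A1 was close to the limit of detection and CYP1B1 was well measured. CYP1A1 was read 10, 22 and 18 times in the 3 vehicle libraries, or 0.336, 0.575 and 0.550 CPM (0.487 ± 0.132, mean ± SD, n = 3). CYP1B1 was at 45.2, 44.5 and 45.001 CPM (44.9 ± 0.330, n = 3). Per kb of transcript, a scale on which genes can be compared, these levels were 0.181 CPM for CYP1A1 and 8.55 CPM for CYP1B1. CYP1A1 counts were whole numbers in every library, whereas no CYP1B1 value was whole, the form such estimates take when reads that match more than 1 gene are divided. CYP1B1-AS1, an antisense transcript that overlaps CYP1B1 over 36456 bases, was at 3.87 CPM in vehicle and made up 2.01% to 7.93% of the sum of both in the 22 groups. The strand setting of the counting is not given in the sources used here. In each vehicle library the fractional parts of the 2 counts add to a whole number (1345.92 and 106.08 in replicate 1). That is the form taken when reads are divided between the 2 genes, and both levels and the share depend on that division.

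Against vehicle, both transcripts rose at the high dose of the same 5 extracts, and neither passed in a medium or low group. Of 18 extract and dose groups 5 passed for each gene (edgeR's quasi-likelihood test, Benjamini-Hochberg adjusted p under 0.05 over 17049 genes), where 3.73% of all gene and group pairs passed. The 18 comparisons share the vehicle libraries. In the 12 medium and low groups, 3 of CYP1A1 and 4 of CYP1B1 had an unadjusted p under 0.05 in edgeR, and DESeq2 called 0 of each, with no adjusted p for CYP1A1 in 7 of them. Under other settings some of these groups did pass for CYP1B1. Without the filter on low counts they were Soyo-san medium (0.19, adjusted p = 0.0329) and Okbyeongpung-san medium (0.21, adjusted p = 0.0187). Fitted on the 2 groups alone they were Menthae Herba medium (0.17, adjusted p = 0.033), Soyo-san medium (0.19, adjusted p = 0.0154) and Okbyeongpung-san low (0.15, adjusted p = 0.0376). Soyo-san medium also passed without its replicate 3 (0.26, adjusted p = 0.0435). CYP1A1 was above the vehicle mean in 18 of 18 groups and CYP1B1 in 17 of 18, Menthae Herba at the low dose being the exception. How often other genes lay on 1 side of vehicle in this way was not counted. Leaving out vehicle replicate 1, the lowest of the 3 for CYP1A1, turned its change negative in 3 groups. They were Saengmaek-san low (-0.00300), Guibi-tang medium (-0.14) and Soyo-san low (-0.14). In that fit 2 groups passed for CYP1A1 (Menthae Herba and Soyo-san at the high dose) in place of 5, and 4 for CYP1B1.

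**Figure D1:**
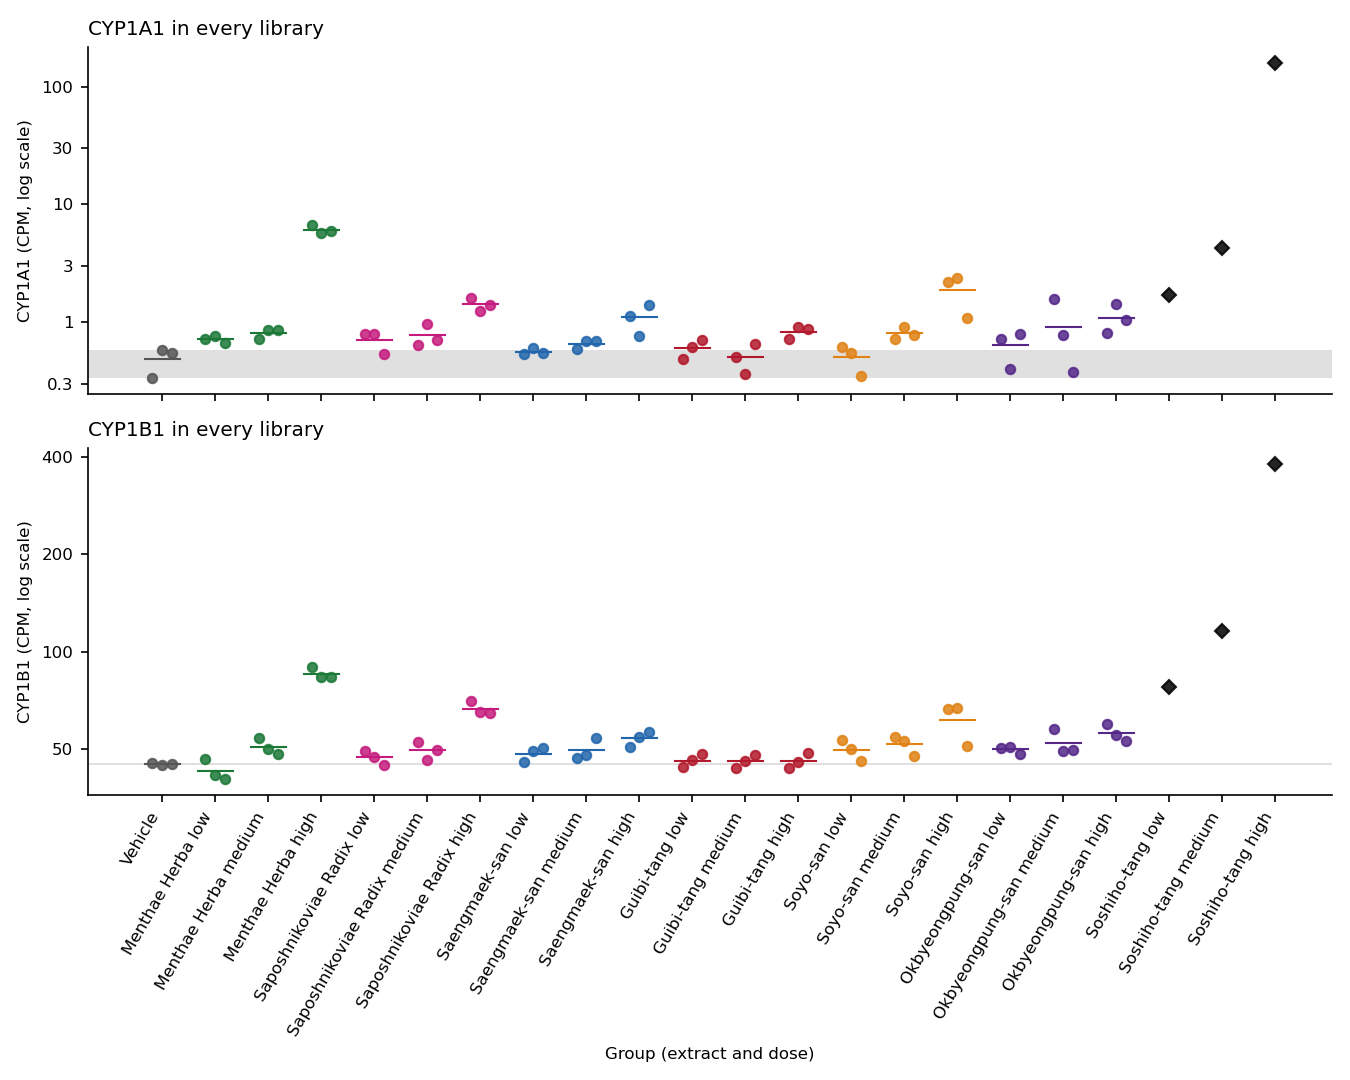
CYP1A1 (top) and CYP1B1 (bottom) in CPM on log axes, 1 point per library, by extract and dose. Bars are group means of 3 libraries, diamonds the single Soshiho-tang libraries and the grey band the vehicle range. The Menthae Herba high libraries (5.71 to 6.70 CPM of CYP1A1) and the Soshiho-tang high library (159.6 CPM) stand above all other libraries of their own extract.

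Menthae Herba, a mint, gave the largest change among the extracts with replicates. CYP1A1 was at 6.70, 5.71 and 5.98 CPM at the high dose, 0.723, 0.863 and 0.861 CPM at the medium dose and 0.719, 0.763 and 0.663 CPM at the low dose. The high dose lay far above both lower doses, whose ranges overlapped each other and lay above all 3 vehicle libraries. The high dose rose by 3.62 ± 0.26 (log2 ± SE) over vehicle, or 12.3-fold (adjusted p = 1.41e-14), and CYP1A1 ranked 1 by p among all genes tested. The medium (0.73 ± 0.31, adjusted p = 0.266) and low dose (0.53 ± 0.32, adjusted p = 0.559) did not pass. CYP1B1 was at 89.9, 83.5 and 83.4 CPM at the high dose, again above all other Menthae Herba and vehicle libraries. It rose by 0.93 ± 0.07, or 1.91-fold (adjusted p = 2.94e-13), ranked 3 by p, while 8.57% of all genes passed in this comparison. At the low dose CYP1B1 was at 46.7, 41.5 and 40.4 CPM, a range that took in that of vehicle (-0.07 ± 0.07, adjusted p = 0.794).

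Saposhnikoviae Radix, the other single herb, raised both genes less. CYP1A1 was at 1.59, 1.25 and 1.40 CPM at the high dose, above every vehicle library and every library of its lower doses. The change was 1.52 ± 0.29 (adjusted p = 0.00335), and 1.33 without vehicle replicate 1, which did not pass (adjusted p = 0.0644, range over 11 alternatives 3.13e-06 to 0.0644). CYP1B1 was at 70.4, 65.0 and 64.7 CPM and rose by 0.57 ± 0.07 (adjusted p = 3.68e-06). In this comparison 0.499% of all genes passed, the fewest of the 6 high-dose groups. The medium and low groups averaged 0.773 and 0.708 CPM of CYP1A1 and 49.6 and 47.2 CPM of CYP1B1, and their ranges overlapped for both genes.

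Soyo-san at the high dose had the highest mean CYP1A1 level among replicated groups after Menthae Herba, with libraries that differed widely. Its high-dose libraries were at 2.19, 2.37 and 1.09 CPM of CYP1A1 and at 66.4, 67.1 and 50.98 CPM of CYP1B1. Replicate 3 was the lowest of the 3 for both genes, and for CYP1B1 it fell within the range of the medium and low doses. CYP1A1 rose by 1.94 ± 0.29 (adjusted p = 5.89e-06) and CYP1B1 by 0.46 ± 0.07 (adjusted p = 3.25e-05), where 14.5% of all genes passed. Leaving out any 1 of the 6 libraries gave 1.74 to 2.20 for CYP1A1 and 0.38 to 0.57 for CYP1B1, and all 12 values passed. The low-dose libraries, at 0.612, 0.547 and 0.351 CPM of CYP1A1, overlapped the vehicle range.

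Saengmaek-san and Okbyeongpung-san raised both genes at the high dose by small amounts that single libraries could decide. In Saengmaek-san CYP1A1 was at 1.14, 0.766 and 1.39 CPM and CYP1B1 at 50.9, 54.5 and 56.6 CPM, all above the vehicle range. The changes were 1.11 ± 0.31 (adjusted p = 0.0275) and 0.26 ± 0.07 (adjusted p = 0.0335), where 4.28% of all genes passed. The CYP1A1 change did not pass without vehicle replicate 1 (0.92), vehicle replicate 3 (1.19), or replicate 1 (1.06) or 3 (0.95) of Saengmaek-san. That of CYP1B1 did not pass without any 1 of the vehicle libraries (0.26, 0.25 and 0.26), or without replicate 2 (0.25) or 3 (0.23) of Saengmaek-san. The 2 earlier libraries averaged 0.951 CPM of CYP1A1 and 52.7 CPM of CYP1B1, against 1.39 and 56.6 CPM in the later one. In Okbyeongpung-san CYP1A1 was at 0.808, 1.42 and 1.05 CPM and CYP1B1 at 59.7, 55.3 and 52.9 CPM, also all above vehicle. They rose by 1.15 ± 0.32 (adjusted p = 0.0201) and 0.32 ± 0.08 (adjusted p = 0.00699), where 7.4% of all genes passed. CYP1A1 did not pass without vehicle replicate 1 (0.96) or Okbyeongpung-san replicate 2 (0.89), nor CYP1B1 without Okbyeongpung-san replicate 1 (0.26). With a term for library order neither passed (0.93 and 0.20). At the medium dose its CYP1A1 values were 1.59, 0.779 and 0.375 CPM, so that 1 library exceeded all 3 of the high dose and another lay within the vehicle range. Without this last library, replicate 3, the medium dose passed (1.299, adjusted p = 0.0132, in place of 0.87 and 0.112, range over 6 libraries left out in turn 0.0132 to 0.948).

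In Guibi-tang neither gene passed at any of the 3 doses (edgeR; 1 dose of CYP1A1 and 0 of CYP1B1 had an unadjusted p under 0.05, and DESeq2 called 0, with no adjusted p for CYP1A1 at 2 doses). CYP1A1 was at 0.723, 0.908 and 0.868 CPM at the high dose, above the vehicle range, with a change of 0.76 ± 0.32 (adjusted p = 0.214). CYP1B1 was at 43.9, 45.5 and 48.8 CPM, around the vehicle level, with a change of 0.03 ± 0.08 (adjusted p = 0.891), while 2.26% of all genes passed. Its group means of CYP1B1 were 46.1, 45.9 and 46.1 CPM at the high, medium and low dose.

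**Figure D2:**
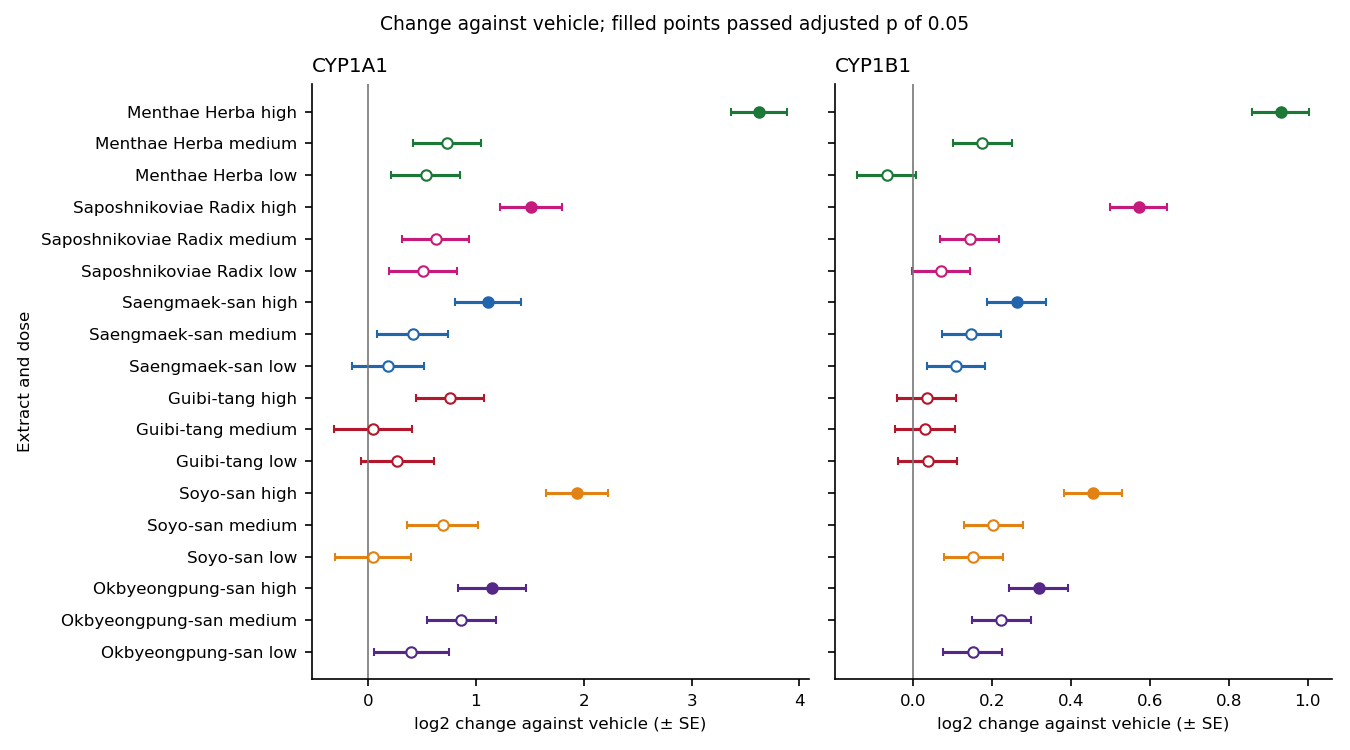
Change of CYP1A1 (left) and CYP1B1 (right) against vehicle in each of 18 extract and dose groups, as log2 values with SE (n = 3 and 3) on axes of different range. Filled points passed the threshold: they are the high doses of all extracts but Guibi-tang, from 1.11 to 3.62 for CYP1A1 and from 0.26 to 0.93 for CYP1B1.

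The single Soshiho-tang libraries held the highest levels of both transcripts in the series at the high dose. CYP1A1 was counted 34 times at the low, 118 times at the medium and 3597 times at the high dose, or 1.69, 4.30 and 159.6 CPM. Every one of these lay above the vehicle range, the low dose above all 3 Saposhnikoviae Radix high libraries and the medium dose above all 3 Soyo-san high libraries. Against the pooled vehicle counts the ratios were 3.41 (95% interval 2.14 to 5.38), 8.67 (6.18 to 12.3) and 322 (243 to 434), intervals that cover counting error only. From the low to the medium dose CYP1A1 was 2.54-fold higher (1.72 to 3.84), and from the medium to the high dose 37.1-fold (30.9 to 44.9). Ranked by the log2 ratio to the vehicle mean, CYP1A1 was 1 of 17049 genes at the high dose, 8 at the medium and 54 at the low dose. CYP1B1 was at 78.0, 115.7 and 381 CPM, or 1.74, 2.58 and 8.49 times the pooled vehicle level (1.64 to 1.84, 2.46 to 2.697 and 8.19 to 8.81). It ranked 318, 61 and 12 at the low, medium and high dose. At least 2-fold above the vehicle mean and above all vehicle libraries were 0.997%, 0.675% and 1.55% of all genes at the low, medium and high dose. Per kb of transcript CYP1A1 reached 59.5 CPM in the high-dose library and CYP1B1 72.6 CPM, a far smaller gap than in vehicle. CYP1A2 was counted 11 times in this library and 9 times in the other 59 together.

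**Figure D3:**
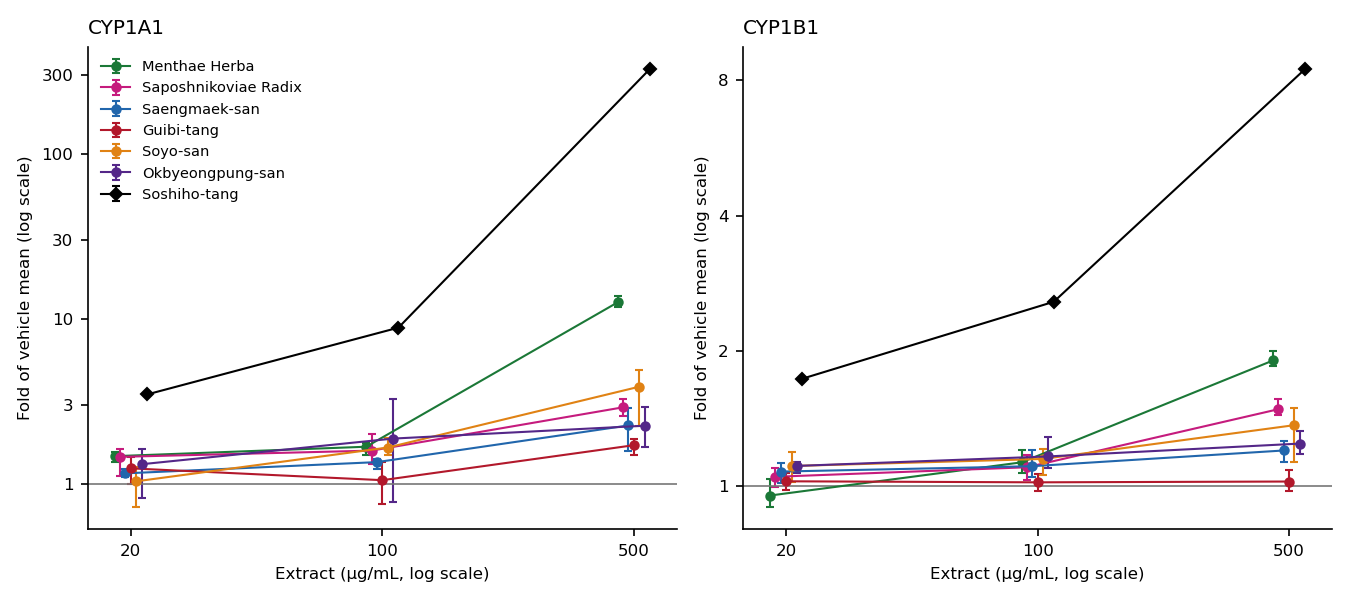
Level of CYP1A1 (left) and CYP1B1 (right) as a fold of the vehicle mean against the dose, all axes logarithmic. Points are means of 3 libraries with the lowest and highest library as bars, diamonds single Soshiho-tang libraries, and points at 1 dose are set slightly apart. Soshiho-tang lies above the other 6 extracts at each dose, reaching 328-fold for CYP1A1 and 8.49-fold for CYP1B1.

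The 19 replicated groups were set in order of their mean level. For each gene 17 of 18 neighbouring pairs overlapped in range. Ordering by the means itself places like groups side by side, and other genes were not counted, so this overlap only describes the order. The exception was Menthae Herba at the high dose, which followed Soyo-san at the high dose for CYP1A1 and Saposhnikoviae Radix at the high dose for CYP1B1. Vehicle was lowest of all groups for CYP1A1 and second lowest for CYP1B1, after Menthae Herba at the low dose. The high doses of Menthae Herba, Saposhnikoviae Radix and Soyo-san were the top 3 replicated groups for both genes, with Soyo-san above Saposhnikoviae Radix for CYP1A1 and below it for CYP1B1. That pair of extracts did not differ past the threshold in either gene (Saposhnikoviae Radix minus Soyo-san -0.42 ± 0.25, adjusted p = 0.295, for CYP1A1 and 0.12 ± 0.07, adjusted p = 0.338, for CYP1B1).

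Within extracts, the doses differed past the threshold in Menthae Herba for both genes, in Saposhnikoviae Radix for CYP1B1 and in Soyo-san for CYP1A1. Of 18 dose comparisons 3 passed for CYP1A1 and 4 for CYP1B1, among them 1 and 2 of the 6 between the high and medium doses, where 0.213% of all gene and step pairs passed. In Menthae Herba the high dose exceeded the medium dose by 2.89 ± 0.24 for CYP1A1 (adjusted p = 6.11e-12) and 0.76 ± 0.07 for CYP1B1 (adjusted p = 5.92e-10), where 0.763% of all genes passed. It exceeded the low dose by 3.09 ± 0.24 and 1.00 ± 0.07, where 2.36% passed. In Saposhnikoviae Radix CYP1B1 was 0.43 ± 0.07 higher at the high than at the medium dose (adjusted p = 0.00569), 1 of only 2 genes (0.0117%) to pass. It was 0.50 ± 0.07 higher than at the low dose (adjusted p = 1.86e-04), 1 of 5 genes (0.0293%). The first of these did not pass without replicate 1 of the high (0.39), or replicate 2 (0.38) or 3 (0.43) of the medium dose. CYP1A1 differed there by 0.89 ± 0.26 and 1.01 ± 0.27 without passing (adjusted p = 1 and 0.345). In Soyo-san, whose libraries are all later ones, CYP1A1 was 1.89 ± 0.30 higher at the high than at the low dose (adjusted p = 0.00141), where 0.129% of all genes passed. That call was lost without replicate 1 (1.76) or 2 (1.70) of the high dose. Its high and medium doses differed by 1.24 ± 0.28 without passing (adjusted p = 0.21). Between the medium and low doses, 0 of 6 steps passed for either gene (edgeR; 0 for CYP1A1 and 1 for CYP1B1 at an unadjusted p under 0.05, 0 by DESeq2, which gave no adjusted p in 1 step of each gene).

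A slope of log2 CPM over the dose steps used all 9 libraries of an extract. It was tested by an exact two-sided permutation of the dose labels (smallest possible p 0.00119), adjusted over 12 slopes. For CYP1A1 4 of 6 slopes passed: 1.49 per 5-fold dose step in Menthae Herba, 0.87 in Soyo-san and 0.43 in Saengmaek-san (exact permutation, adjusted p = 0.00714 each), and 0.47 in Saposhnikoviae Radix (adjusted p = 0.019, exact permutation). Guibi-tang (0.22) and Okbyeongpung-san (0.37) did not pass (exact permutation, adjusted p = 0.211 and 0.219). For CYP1B1 2 of 6 passed, 0.50 in Menthae Herba and 0.25 in Saposhnikoviae Radix (exact permutation, adjusted p = 0.00714 and 0.0114). The other 4 ran from -0.00 in Guibi-tang to 0.15 in Soyo-san.

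Between extracts at the high dose, Menthae Herba exceeded each of the other 5 in both genes. Of 15 pairs 6 passed for CYP1A1 and 8 for CYP1B1, where 2.67% of all gene and pair combinations passed. The Menthae Herba differences ran from 1.69 ± 0.22 (Soyo-san) to 2.86 ± 0.24 (Guibi-tang) for CYP1A1 and from 0.36 ± 0.07 (Saposhnikoviae Radix) to 0.90 ± 0.07 (Guibi-tang) for CYP1B1. All 10 kept passing with any 1 library of the pair left out. Guibi-tang was below Soyo-san in CYP1A1 (-1.18 ± 0.27, adjusted p = 0.0428) and CYP1B1 (-0.42 ± 0.08, adjusted p = 0.00283). Each of these calls was lost without replicate 1 or 2 of either extract, at -1.26 to -0.99 and -0.41 to -0.35. With a term for library order the CYP1A1 difference did not pass either (-1.02, adjusted p = 0.189), Soyo-san libraries being all later and those of Guibi-tang on both sides. Saposhnikoviae Radix exceeded Guibi-tang (0.54 ± 0.07, adjusted p = 1.81e-06) and Okbyeongpung-san (0.25 ± 0.07, adjusted p = 0.0393) in CYP1B1. The second of these did not pass without any 1 of its 6 libraries (0.21 to 0.31). Saengmaek-san and Okbyeongpung-san differed by -0.03 ± 0.29 in CYP1A1 and -0.06 ± 0.08 in CYP1B1, which does not show that they act alike. At the medium and the low dose 0 of 15 pairs passed for either gene, where 1.51% and 0.889% of all combinations passed. At an unadjusted p under 0.05 in edgeR there were 2 and 0 pairs for CYP1A1 and 2 and 3 for CYP1B1, and DESeq2 called 0, with no adjusted p for CYP1A1 in 6 and 7 pairs.

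The change from the low to the high dose itself differed between Menthae Herba and other extracts. Of 15 pairs of extracts, 4 passed for CYP1A1 and 5 for CYP1B1 in this interaction, where 0.036% of all gene and pair combinations passed. Every pair that passed set Menthae Herba against another extract. For CYP1A1 the excess was 2.60 ± 0.41 over Guibi-tang, 2.34 ± 0.42 over Okbyeongpung-san, 2.16 ± 0.40 over Saengmaek-san and 2.08 ± 0.37 over Saposhnikoviae Radix, and 1.20 ± 0.41 over Soyo-san, which did not pass (adjusted p = 0.792). The excess over Okbyeongpung-san passed in 11 of 12 fits that left out 1 library, and not without Okbyeongpung-san low replicate 3 (2.13, adjusted p = 0.0508). For CYP1B1 it ran from 0.50 ± 0.10 over Saposhnikoviae Radix (adjusted p = 0.0262) to 1.00 ± 0.10 over Guibi-tang (adjusted p = 2.05e-08). The first of these passed in 4 of 12 such fits (0.45 to 0.55).

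CYP1A1 and CYP1B1 varied together over the groups. The 19 group means of log2 CPM correlated at Pearson r = 0.925 and Spearman rho = 0.746, and at r = 0.817 without Menthae Herba at the high dose. Deviations of the 57 libraries from their group means correlated at 0.425. These are descriptions, since the 2 values of a point share library and depth. In Soyo-san replicate 3 at the high dose and Okbyeongpung-san replicate 1 at the medium dose, the low and the high outlying value of CYP1A1 went with the lowest and the highest CYP1B1 of the group. This did not hold in every group. Okbyeongpung-san replicate 1 at the high dose had the lowest CYP1A1 (0.808 CPM) and the highest CYP1B1 (59.7 CPM) of its group.

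**Figure D4:**
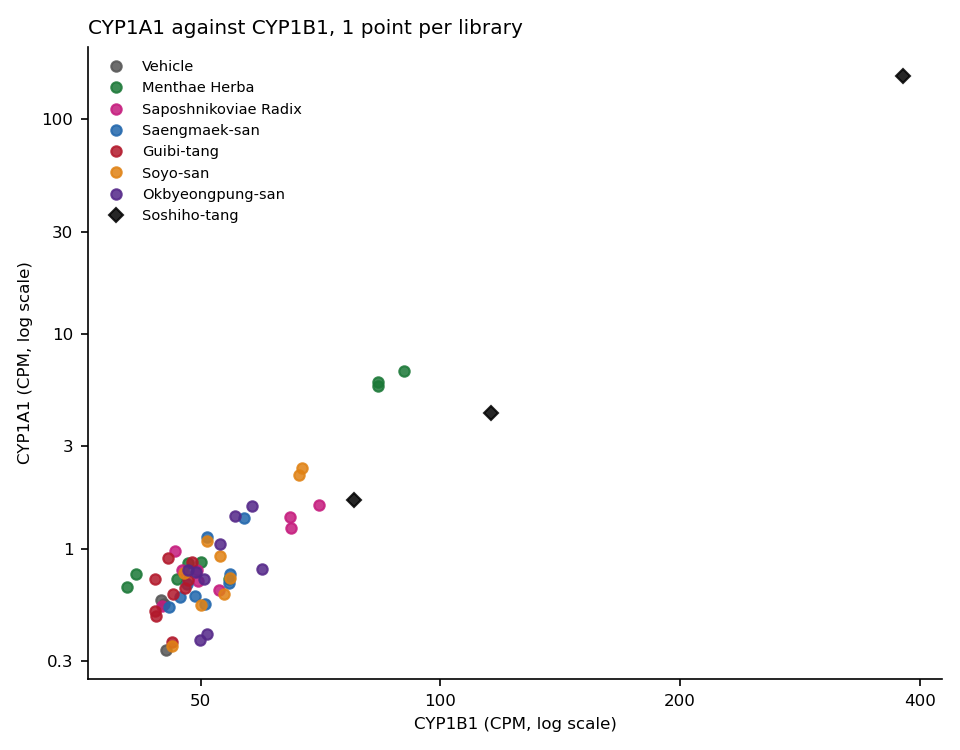
CYP1A1 against CYP1B1 in CPM, both on log axes, 1 point per library, coloured by extract. The 60 libraries run from a dense group near the vehicle level through the high doses of Saposhnikoviae Radix, Soyo-san and Menthae Herba to the Soshiho-tang high library at 381 and 159.6 CPM.

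Among 11550 protein-coding genes with a mean of at least 1 CPM, the gene most like both was TIPARP, an AhR target that encodes an ADP-ribosyltransferase acting on AhR. Its r over the 19 group means was 0.979 with CYP1A1 and 0.952 with CYP1B1. Next to CYP1A1 came the receptor tyrosine kinase-like EPHB6 (0.956), CYP1B1 itself, malic enzyme ME1 (0.917) and the glycerol-phosphate acyltransferase GPAT3 (0.915). Next to CYP1B1 came CYP1A1 itself, EPHB6 (0.917), the retinaldehyde dehydrogenase ALDH1A3 (0.887) and the adhesion receptor ADGRF1 (0.871). In the Soshiho-tang high library, which had no part in this ranking, TIPARP was at 214 CPM against 78.8 in vehicle, ALDH1A3 at 119 against 23.6, ADGRF1 at 113 against 34.6, GPAT3 at 37.3 against 16.4, ME1 at 129 against 82.7 and EPHB6 at 97.8 against 63.4. By Spearman correlation 2 of the 5 genes nearest to each remained among the nearest 5, and over the 7 groups with earlier libraries alone 1 and 0 did.

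Of the receptor's own machinery, TIPARP rose in 5 of the 6 high-dose groups. AHR, the receptor gene, was at 125.4 ± 6.07 CPM in vehicle and passed in none of the 6 high-dose groups, with changes from -0.03 (Soyo-san) to 0.15 (Saposhnikoviae Radix). TIPARP rose from 78.8 ± 1.46 to 124.7 ± 4.16 CPM in Menthae Herba (0.66 ± 0.06, adjusted p = 2.34e-12). It also rose in Saposhnikoviae Radix (0.30), Soyo-san (0.27), Saengmaek-san (0.21) and Okbyeongpung-san (0.20), and in Guibi-tang its change was 0.15 (adjusted p = 0.179). ARNT, the partner of AhR, fell by 0.20 in Menthae Herba (adjusted p = 0.0166), where PTGES3 rose by 0.15. HSP90AB1, an HSP90 gene, rose by 0.14 in Soyo-san (adjusted p = 0.0287). AHRR, the AhR repressor, passed in no high-dose group, but rose past the threshold in Soyo-san at the low dose. In the Soshiho-tang libraries AHRR was at 7.57, 7.15 and 11.8 CPM at the low, medium and high dose against 5.60 to 6.21 in vehicle.

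**Figure D5:**
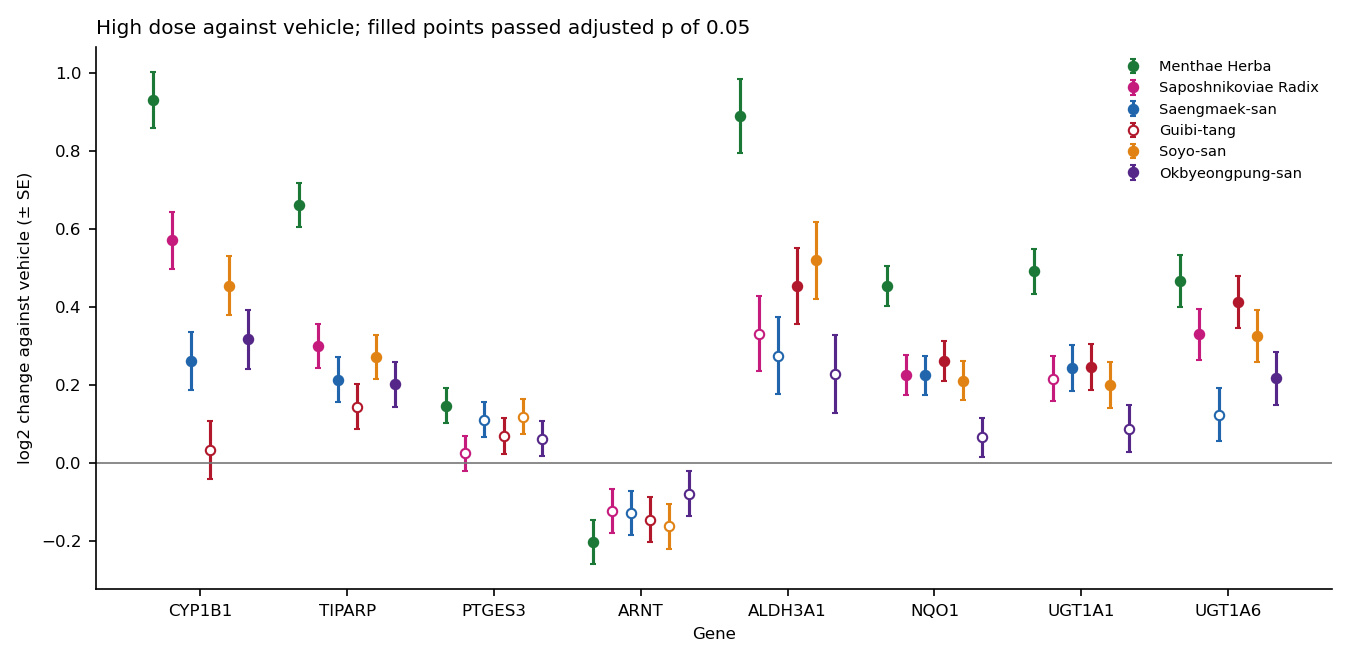
Change at the high dose against vehicle of CYP1B1 and of 7 genes of the AhR pathway lists, as log2 values with SE (n = 3 and 3), coloured by extract. Filled points passed the threshold. Menthae Herba gives the highest point for CYP1B1 (0.93), TIPARP (0.66), ALDH3A1 (0.89) and NQO1 (0.45), and Guibi-tang is open for CYP1B1 and TIPARP but filled for ALDH3A1, NQO1, UGT1A1 and UGT1A6.

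Of 12 other known AhR targets 8 were tested. At the high dose 5 of these rose in Menthae Herba, and 4 rose and 1 fell in Guibi-tang and in Soyo-san. At the same dose 2 rose in Saposhnikoviae Radix and in Saengmaek-san, and 1 rose and 1 fell in Okbyeongpung-san. Over all genes 8.57% passed in Menthae Herba, 2.26% in Guibi-tang, 14.5% in Soyo-san, 0.499% in Saposhnikoviae Radix, 4.28% in Saengmaek-san and 7.4% in Okbyeongpung-san. The median change of the 8 was 0.36 in Menthae Herba and 0.05 to 0.13 in the other 5, beside medians within 0.01 of 0 for all genes tested. ALDH3A1, an aldehyde dehydrogenase, rose from 25.1 ± 1.51 to 46.5 ± 0.246 CPM in Menthae Herba (0.89 ± 0.09, adjusted p = 3.94e-09), by 0.52 in Soyo-san and by 0.46 in Guibi-tang. NQO1, a quinone reductase, rose in all extracts but Okbyeongpung-san, from 0.21 in Soyo-san to 0.45 in Menthae Herba. UGT1A1 and UGT1A6 encode glucuronosyltransferases and share their last exons, so the division of reads between them is uncertain. UGT1A1 rose in 4 groups, by 0.20 to 0.49, and UGT1A6 in 5, by 0.22 to 0.47. NQO1, ALDH3A1 and the UGT1A genes are also known targets of NRF2, the oxidative stress factor. Guibi-tang had 4 of these targets past the threshold (0.25 to 0.46). At that dose CYP1A1 (0.76 ± 0.32), CYP1B1 (0.03 ± 0.08) and TIPARP did not pass, which does not show that they were unchanged. The part of AhR or NRF2 in these changes was not tested. EREG, an epidermal growth factor family ligand, rose by 0.27 in Menthae Herba at the high dose. At that dose it fell by 0.23 in Guibi-tang, by 0.21 in Soyo-san and by 0.29 in Okbyeongpung-san. EREG also fell past the threshold at the medium and low doses of these extracts, and in Saengmaek-san at the low dose. In Soyo-san and Okbyeongpung-san the falls compare later libraries with earlier vehicle ones. Differences between extracts in these genes were not tested. In the Soshiho-tang high library ALDH3A1 was at 86.4 CPM, NQO1 at 667 and EREG at 169, against 25.1, 464 and 105 in vehicle.

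Of other P450 genes and their redox partners, 18 of 24 were tested. At the high dose 5 of these passed in Soyo-san, 3 in Menthae Herba, 2 in Guibi-tang and 1 each in Saengmaek-san and Okbyeongpung-san. In Saposhnikoviae Radix 0 passed (edgeR, with 3 at an unadjusted p under 0.05). Over all genes 14.5%, 8.57%, 2.26%, 4.28%, 7.4% and 0.499% passed in these groups, in the order Soyo-san, Menthae Herba, Guibi-tang, Saengmaek-san, Okbyeongpung-san and Saposhnikoviae Radix. CYP3A5, a drug-metabolising P450, rose by 0.32 ± 0.06 in Okbyeongpung-san (adjusted p = 2.08e-04), from 77.7 ± 5.71 to 97.1 ± 4.11 CPM, and by 0.17 in Soyo-san, and was at 103.6 CPM in the Soshiho-tang high library. CYP51A1, an enzyme of cholesterol synthesis, rose by 0.21 in Menthae Herba (adjusted p = 0.00153). CYP4F11, a fatty acid hydroxylase read at 0.935 CPM in vehicle, rose by 0.96 in Soyo-san (adjusted p = 0.00772), and CYP2W1, at 1.26 CPM, fell by 0.95 there (adjusted p = 0.00676). CYP4F11 also rose in Menthae Herba (0.78) and Guibi-tang (0.93). CYP24A1, which degrades vitamin D hormones and was read at 1.93 CPM in vehicle, rose in 4 high-dose groups by 0.44 to 0.53. It also rose at the medium dose of Guibi-tang and at the medium and low doses of Okbyeongpung-san. The reductase CYB5R3 fell by 0.21 in Soyo-san at the high dose. CYB5R3 also fell in Soyo-san at the medium dose and in Okbyeongpung-san at the low dose. CYP3A5 also rose in both of these extracts at the low dose. The median change of the 18 ran from -0.10 to 0.02 over the 6 groups. POR, which passes electrons to CYP1A1, CYP1B1 and the other microsomal P450 enzymes, passed in no high-dose group, with changes from -0.04 to 0.14. CYP2C8, CYP2C19, CYP3A4, CYP4F2 and CYP26B1 were among the genes too low to test, as was CYP1A2.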

How the data were processed

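The 60 HT29 libraries were made with a directional kit and read from both ends (100 bp), per the labels' protocols. Expected counts, unscaled, were deposited by the authors. The submitters' processing notes name FastQC 0.11.9, Trim Galore 0.6.5, STAR 2.7.3a, RSEM 1.3.3 and the build hg38 (GRCh38). No source used here gives the gene annotation behind the counts or says how strand was handled. Values were rounded, and 27.7% of those above 0 were not whole. Such counts divide reads that match several genes, so values of close relatives depend on that division.

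In R 4.3.3, filterByExpr of edgeR 4.0.16 kept 17049 genes, TMM scaled the libraries, and edgeR's robust quasi-likelihood test was fitted to 57 libraries in 19 groups (38 residual degrees of freedom), with no block. Adjusted p-values are Benjamini-Hochberg over the genes of a comparison, threshold 0.05. Log2 CPM used a prior count of 2. Soshiho-tang (1 library per dose) had no test, and its intervals are exact at 95%. Totals per library ran from 19495005 to 41934333.

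Same-numbered libraries of 2 groups were checked for pairing by correlating how each deviated from its group mean over genes. All 3 correlations exceeded 0.1 in 2 of 36 comparisons, both within Saengmaek-san (high against medium dose 0.110, 0.175 and 0.276, medium against low dose 0.107, 0.126 and 0.260), and the block changed no call there.

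Named genes were the 2 P450 genes, up to 4 members of each of 3 AhR pathway lists (receptor machinery, other targets, other P450 genes) past the threshold in a high-dose group by smallest p, and the 5 genes nearest to each by Pearson r. EREG, HSP90AB1, AHR, AHRR, CYP24A1, CYB5R3, POR and genes too low to test were named after their values were seen. Some list members, and the counts over the machinery list, are not reported here. The genes and lists were chosen with earlier results of these data known. The fit was tested on simulated data. Alternatives were DESeq2 1.42.0 size factors and test, no filter, a replicate block, an order term, the 2 groups alone and leaving out each library, and for slopes another prior count and unlogged CPM.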

Additional observations from a re-analysis of the deposited data

Results flagged for a closer look

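The change from the low to the high dose of Menthae Herba differed from that of other extracts by a test of the difference itself (edgeR's interaction term) in 9 cases. For CYP1A1 the log2 excess was 2.08 over Saposhnikoviae Radix, 2.16 over Saengmaek-san, 2.60 over Guibi-tang and 2.34 over Okbyeongpung-san. For CYP1B1 it was 0.50 over Saposhnikoviae Radix, 0.84 over Saengmaek-san, 1.00 over Guibi-tang, 0.69 over Soyo-san and 0.83 over Okbyeongpung-san. Menthae Herba and Saposhnikoviae Radix libraries are all earlier ones, and those of Soyo-san and Okbyeongpung-san all later ones. Both doses of each of these extracts thus lie on 1 side of the library order. Saengmaek-san had 2 earlier libraries and 1 later one at both doses. Guibi-tang had 2 earlier and 1 later at the high dose, but 1 earlier and 2 later at the low dose. Its change from the low to the high dose is therefore partly mixed with library order. The excess over Guibi-tang passed under all 17 alternatives for both genes, the order term among them. Of the 12 fits that left out 1 library, the CYP1B1 excess over Saposhnikoviae Radix passed in 4 and the CYP1A1 excess over Okbyeongpung-san in 11 (2.13 without Okbyeongpung-san low replicate 3, edgeR, adjusted p = 0.0508). The other 7 passed in all 12.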

How the results depend on the processing

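Of the changes, slopes and counts that answer a comparison, 143 values under alternatives other than a left-out library were kept. A change or slope was kept if its direction and side of the threshold held, and a count if it stayed similar in size. Kept counts could still differ, as did the high-dose pairs of CYP1B1 without the filter on low counts (11 in place of 8). Of the remaining values, 4 no longer passed, 4 counts moved and 1 reversed. Without the filter on low counts, dose steps past the threshold numbered 5 for CYP1A1 (in place of 3) and 7 for CYP1B1 (in place of 4), groups of CYP1B1 against vehicle 7 (in place of 5, also 7 on the 2 groups alone), interactions of CYP1B1 8 (in place of 5) and its low-dose pairs 2 (in place of 0). Fitted on the 2 groups alone, Saengmaek-san at the high dose did not pass (1.11 for CYP1A1, 0.26 for CYP1B1). With the order term, whose coefficient only Saengmaek-san and Guibi-tang can estimate, Okbyeongpung-san at the high dose did not pass (0.93 and 0.20), nor did CYP1A1 in Guibi-tang against Soyo-san at the high dose (-1.02). That term was 0.21 ± 0.20 for CYP1A1 (edgeR, adjusted p = 0.454) and 0.12 ± 0.04 for CYP1B1 (adjusted p = 0.0313), and passed for 5053 of 17049 genes. It reversed values near 0: CYP1B1 in Guibi-tang at the high (-0.00315), medium (-0.0492) and low dose (-0.0412), and CYP1A1 in Guibi-tang medium (-0.10) and Soyo-san low (-0.17). The causes were not tested. DESeq2 gave no adjusted p for CYP1A1 in 11 of 18 comparisons with vehicle, among them 3 of the 5 edgeR calls, and called the other 2. It called all 5 of CYP1B1.

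With a replicate block, the counts against vehicle were again 5 for CYP1A1 and 5 for CYP1B1, and the block changed no call of either gene in the 96 comparisons.

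With 1 library left out in turn, the high-dose changes of CYP1A1 ran from 1.33 to 1.66 in Saposhnikoviae Radix, from 0.92 to 1.32 in Saengmaek-san and from 0.89 to 1.33 in Okbyeongpung-san. Those of CYP1B1 ran from 0.23 to 0.30 in Saengmaek-san, from 0.26 to 0.35 in Okbyeongpung-san and from -0.00985 to 0.0648 in Guibi-tang. Without any 1 vehicle library CYP1A1 passed in 2 to 5 groups and CYP1B1 in 4. Leaving out a treated library added Okbyeongpung-san medium for CYP1A1 (1.299) and Soyo-san medium for CYP1B1 (0.26), each without its replicate 3. Values near 0 changed sign: CYP1A1 in Saengmaek-san low (-0.00300 to 0.33), Guibi-tang medium (-0.18 to 0.24) and Soyo-san low (-0.14 to 0.22), and CYP1B1 in Guibi-tang medium (-0.00136 to 0.0603). Without 1 replicate at all doses, 6 libraries allow 90 arrangements (smallest exact permutation p 0.0222), and 0 slopes passed. Slopes of CYP1A1 then ran from 1.46 to 1.54 in Menthae Herba, 0.39 to 0.56 in Saposhnikoviae Radix, 0.33 to 0.56 in Saengmaek-san and 0.80 to 0.93 in Soyo-san. Those of CYP1B1 ran from 0.49 to 0.51 in Menthae Herba, 0.24 to 0.26 in Saposhnikoviae Radix and -0.00622 to 0.00333 in Guibi-tang.

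Depth limits CYP1A1 more than CYP1B1, since vehicle held 10 to 22 reads of it per library.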
